A study of Mus musculus with 2 samples.

Results

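Interferon response genes were examined in endogenous CD8+ T (en-T) cells, the recipient's own CD8+ T cells that recover after cyclophosphamide. The members were 45 listed genes that type I interferon (interferon-α and -β) or type II interferon (interferon-γ) is known to induce, found by gene symbol on the array. Of the 45 genes, 40 had a probe set named here, out of 19505 named genes in all. Gbp5, Gbp6, Tgtp1, Trex1 and Ifi44 had no probe set named here, so their levels were not analysed. Some of them, such as Gbp5 and Tgtp1, are in the promoter counts below.

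The CTXpre/CD4post array held RNA of en-T cells from mice that received the depleting anti-CD4 antibody GK1.5, at 200 µg on days 10, 17 and 24. The CTXpre array held RNA of en-T cells from mice without this antibody. Everything else was shared: 6- to 8-week-old female C57BL/6 mice, 200000 B16F10 melanoma cells injected into the skin on the first day, 300 mg/kg cyclophosphamide on day 3, 2000000 Thy1.1+ Pmel-1 T cells on day 5 and 10000 IU of IL-2 daily for 3 days. On day 25, CD8+ Thy1.1- cells were sorted from inguinal lymph nodes and spleen, and each group's RNA, a pool from 5 mice, went onto 1 array. With n = 1 per group, no test was possible, and neither levels nor differences have a replicate check or error. All levels are on a log2 scale, and differences are CTXpre/CD4post minus CTXpre. Each probe set binds with its own strength, so levels are compared between arrays and not between genes.

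Interferons act through cell surface receptors and JAK kinases on STAT factors. Type I interferon acts mainly through the interferon-stimulated response element (ISRE) of its target genes, and interferon-γ mainly through the gamma-activated site (GAS). The first route is best known for antiviral genes of the Ifit, Oas and Mx families. The second is best known for the guanylate-binding proteins (Gbp) and the immunity-related GTPases (Irg), which attack vacuoles that hold microbes. CD8+ T cells both respond to these cytokines and, once activated, make interferon-γ.

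Some promoters of the members held these elements, and examples are shown here because the ISRE and GAS are the elements through which interferons are known to act. The ISRE core searched was GAAA, any 2 bases and GAAA again, on both strands, and the GAS core was TTCNNNGAA, which reads the same on both strands. The windows ran from 250 bases before to 50 bases after each start in a RefSeq table (build GRCm38.p6). Of 32 members in the table, 17 held the ISRE core in at least 1 window (53.1%), against 3.99% of all 27025 genes of the table (3.44% of all windows). The GAS core was in 11 of the 32 (34.4%), against 9.55% of all genes (8.30% of windows). Both cores were in 6 of the 32 (18.8%), of which 5 were GTPase genes, against 0.54% of all genes. Below are the 120 bases before the start of 6 members, 5′ to 3′ on the gene's strand, with the ISRE and GAS cores in capitals.

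Ifit1: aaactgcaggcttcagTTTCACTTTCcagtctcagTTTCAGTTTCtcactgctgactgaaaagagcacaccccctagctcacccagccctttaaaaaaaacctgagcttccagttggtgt
Isg15: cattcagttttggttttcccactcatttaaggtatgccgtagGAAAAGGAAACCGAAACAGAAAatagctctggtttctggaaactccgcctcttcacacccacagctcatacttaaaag
Gbp2: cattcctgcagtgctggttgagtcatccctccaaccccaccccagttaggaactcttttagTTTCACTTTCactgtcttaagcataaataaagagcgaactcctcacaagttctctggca
Igtp: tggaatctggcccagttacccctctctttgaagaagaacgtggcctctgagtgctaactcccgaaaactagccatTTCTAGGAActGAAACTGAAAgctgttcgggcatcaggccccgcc
Irgm2: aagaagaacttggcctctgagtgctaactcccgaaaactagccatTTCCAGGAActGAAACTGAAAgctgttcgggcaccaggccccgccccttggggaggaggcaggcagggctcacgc
Irf1: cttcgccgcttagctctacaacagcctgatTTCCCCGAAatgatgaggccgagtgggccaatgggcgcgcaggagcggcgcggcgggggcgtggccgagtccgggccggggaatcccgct

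In Ifit1 (chr19:34640769-34640888, plus strand), 2 ISRE cores were found, and in Isg15 (chr4:156200819-156200938, minus strand) 3 cores overlapped in 1 run. Gbp2 (chr3:142620543-142620662, plus strand) held 1 ISRE core. Igtp (chr11:58199436-58199555, plus strand) and its neighbour Irgm2 (chr11:58214857-58214976, plus strand) held a GAS core that began 11 bases before an ISRE core, and both windows shared an identical run of 38 bases. Irf1 (chr11:53769894-53770013, plus strand) held 1 GAS core and no ISRE core in this window. The GTPase genes held the ISRE core in 8 of 8 genes in the table and the GAS core in 5 of 8. These are not the same 8 GTPase genes whose levels are given below. Gbp5 and Tgtp1 have no level here, and Gbp4, Gbp6 and Iigp1 are not in the promoter table. The antiviral genes held the ISRE core in 4 of 7 and the GAS core in 2 of 7. A match describes the letters only, and binding was not measured.

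**Figure D1:**
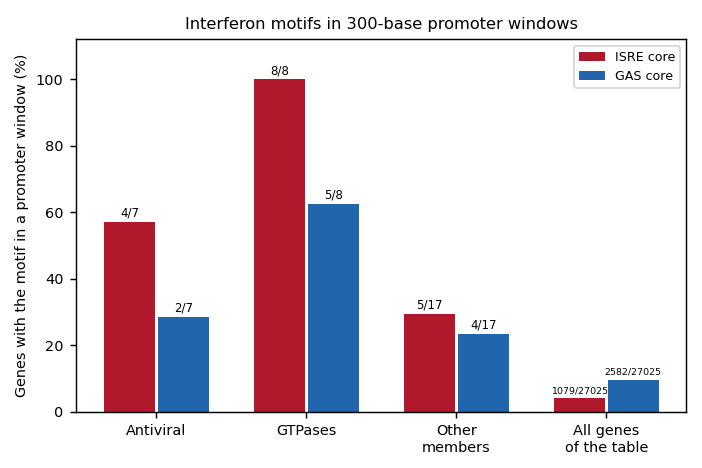
Share of genes (%) whose 300-base promoter window holds the ISRE core (red) or the GAS core (blue), for antiviral members, GTPase members, the other members and all genes of the RefSeq table, with counts above the bars. The ISRE core was in 8 of 8 GTPase genes and 3.99% of all genes.

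Across the members, differences between the CTXpre/CD4post and CTXpre arrays were small and mostly above 0. Of the 40 measured members, 39 had a mean level over both arrays above the background bound of 4.35, the 95th percentile of 1450 chemosensory receptor probe sets averaged over both arrays, and the exception was Oasl1. Of these 39 members, 31 had a difference above 0 (79.5%), against 51.8% of all 12442 genes above the bound. Their median difference was 0.15, against 0.01 over all genes above the bound. The lowest was -0.57 for Oas2 and the highest 0.59 for Iigp1. By size, 1 of 39 was at least 1.5-fold higher (2.56%), against 2.81% of all genes above the bound, and 0 of 39 were at least 1.5-fold lower, against 2.93%. The share of members at least 1.5-fold higher was near the background share. Past 1.5-fold in either direction, it was 1 of 39 members (2.56%), against 5.73% of all genes above the bound. At a log2 difference of 0.32, a lower threshold, 9 of 39 members were higher (23.1%), against 10.7% of all genes, and 1 of 39 was lower (2.56%), against 10.6%. Dim genes spread more than bright ones, so the share above 0 was also read by level. It was 9 of 10 members with a mean level up to 6 (49.9% of all genes there), 14 of 19 with a mean level over 6 and up to 8 (51.4%), and 8 of 10 with a mean level over 8 (57.0%).

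**Figure D2:**
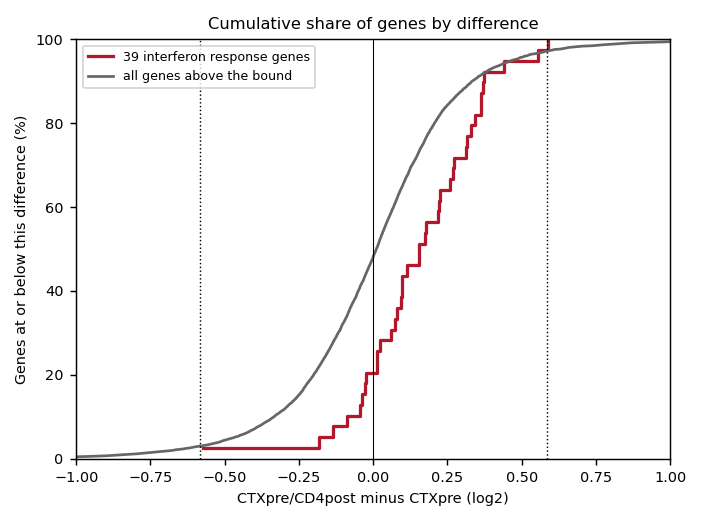
Cumulative share of genes (%) against the difference between CTXpre/CD4post and CTXpre (log2), for 39 interferon response genes (red) and all 12442 genes above the background bound (grey), with dotted lines at 1.5-fold. The red line lies to the right of the grey line around 0, with medians of 0.15 and 0.01, and meets it near the upper 1.5-fold line.

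The spread between the arrays sets the scale for single genes. The central 95% of differences ran from -0.62 to 0.60 over all genes above the bound, and from -0.68 to 0.70 over genes with a mean level up to 6. All 39 members lay within the first range. The chemosensory receptor probe sets, which T cells are taken not to use, had a median difference of 0.04 and a central 95% from -0.58 to 0.66.

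Among the 10 antiviral genes, 8 of the 9 above the bound had a difference above 0, with a median of 0.22 and a mean of 0.14. Mx1, a dynamin-like GTPase against influenza viruses that is defective in C57BL/6 and most laboratory strains, had levels of 6.28 in CTXpre/CD4post and 5.84 in CTXpre, 1.36-fold higher. Mx2 had levels of 5.98 in CTXpre/CD4post and 5.76 in CTXpre. Both Mx genes were thus on the same side of 0.

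The Ifit genes, whose products bind foreign RNA and block its translation, differed by 0.07 to 0.37. Ifit1 had levels of 5.88 in CTXpre/CD4post and 5.51 in CTXpre, 1.29-fold higher. Ifit2 had levels of 5.24 in CTXpre/CD4post and 5.06 in CTXpre. Ifit3 had nearly equal levels, 7.59 in CTXpre/CD4post and 7.52 in CTXpre. The Ifit genes are close paralogs, and whether a probe set also binds a paralog's transcript was not tested.

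The Oas genes, most of which encode enzymes that make the oligoadenylates that switch on RNase L, went both ways. Oas3 had levels of 5.73 in CTXpre/CD4post and 5.42 in CTXpre, and Oas1a 6.09 in CTXpre/CD4post and 5.83 in CTXpre. Oas2, the neighbour of Oas3, was the lowest member, with levels of 5.09 in CTXpre/CD4post and 5.67 in CTXpre, 1.49-fold lower and just short of 1.5-fold. Oasl2 differed by 0.01 (6.98 in CTXpre/CD4post and 6.97 in CTXpre). Oasl1, known to restrain the translation of Irf7, was not above background on either array, at 3.63 in CTXpre/CD4post and 3.93 in CTXpre.

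**Figure D3:**
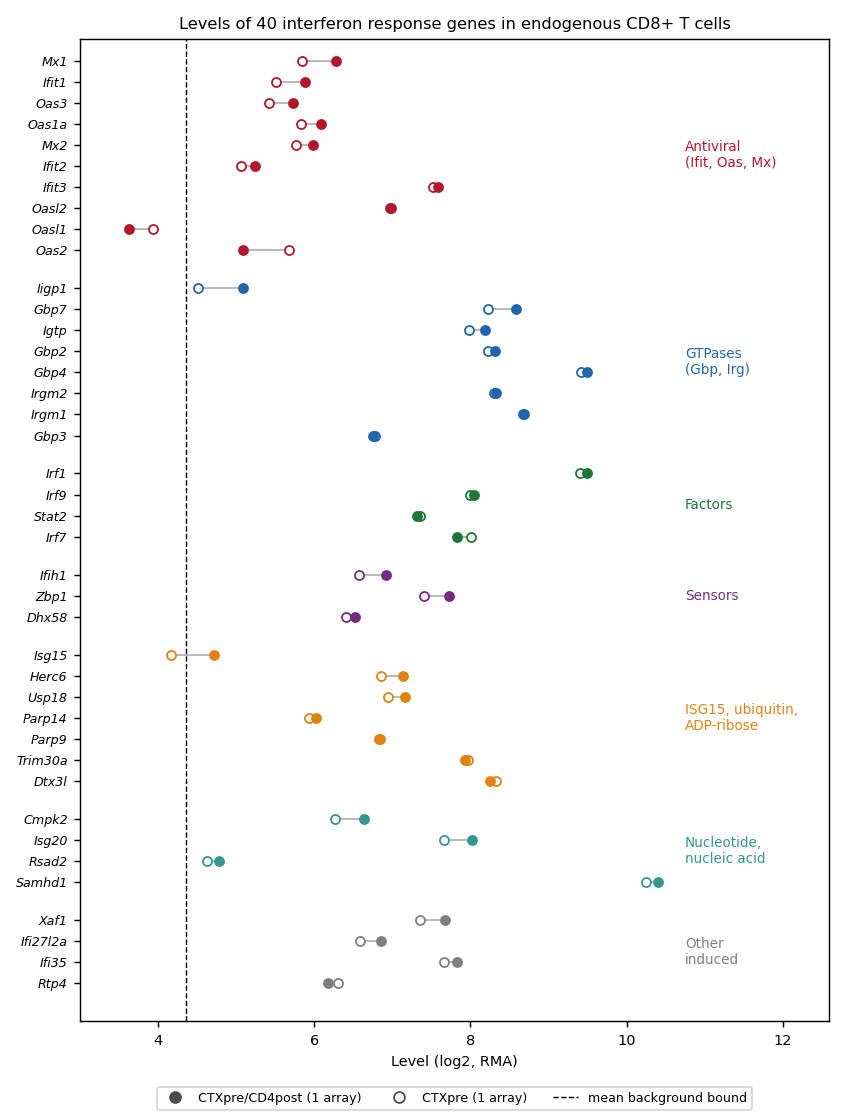
Level (log2) of each of the 40 measured members in CTXpre/CD4post (filled) and CTXpre (open), 1 array each, by group and sorted by difference, with the mean background bound of 4.35 as a dashed line. Most filled points lie to the right of their open points, with Oas2 (5.09 in CTXpre/CD4post and 5.67 in CTXpre) the widest gap the other way, and levels of different genes are not comparable.

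Of the 11 interferon-γ GTPase genes, 8 were measured and all 8 were above the bound. Of these, 6 had a difference above 0, with a median of 0.09 and a mean of 0.16. The median was smaller than that of the antiviral genes and the mean was larger, so the groups had no fixed order, and their difference was not tested.

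The Gbp genes differed by -0.03 to 0.36. Gbp7 had levels of 8.59 in CTXpre/CD4post and 8.23 in CTXpre, 1.28-fold higher. Its chromosomal neighbour Gbp3 had 6.75 in CTXpre/CD4post and 6.78 in CTXpre. Gbp2, which helps to disrupt vacuoles and recruit caspase-11, had levels of 8.31 in CTXpre/CD4post and 8.22 in CTXpre, and Gbp4 9.50 in CTXpre/CD4post and 9.42 in CTXpre.

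Among the Irg genes, Iigp1 encodes an effector that loads onto vacuoles of Toxoplasma and Chlamydia. It was the only member at 1.5-fold, with levels of 5.09 in CTXpre/CD4post and 4.51 in CTXpre, close to the background bound of 4.35 in CTXpre. Centring all differences on their median put it under 1.5-fold, and with 32 added to the linear values its difference was 0.27. Irgm1, Irgm2 and Igtp encode regulators that keep such effectors off the cell's own membranes. Irgm1 had levels of 8.67 in CTXpre/CD4post and 8.69 in CTXpre, and Irgm2 8.33 in CTXpre/CD4post and 8.30 in CTXpre. Igtp had 8.19 in CTXpre/CD4post and 7.98 in CTXpre, a difference of 0.22, against 0.02 for Irgm2 next to it, and the promoters of both hold the GAS and ISRE cores shown above.

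The transcription factors of the pathway were nearly level. Of 4 genes, 2 had a difference above 0, with a median of 0.01. Irf1, an early interferon-γ target, had levels of 9.49 in CTXpre/CD4post and 9.40 in CTXpre. The ISRE-binding partners differed by 0.06 for Irf9 (8.05 in CTXpre/CD4post and 7.99 in CTXpre) and -0.04 for Stat2 (7.32 in CTXpre/CD4post and 7.36 in CTXpre). Irf7, the amplifier of type I interferon that plasmacytoid dendritic cells hold at high levels, had levels of 7.83 in CTXpre/CD4post and 8.01 in CTXpre, a difference of -0.18.

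The nucleic acid sensors all had a difference above 0, with a median of 0.32 over 3 genes. Ifih1, which encodes the RNA sensor MDA5, had levels of 6.92 in CTXpre/CD4post and 6.57 in CTXpre. Zbp1, a sensor of Z-form nucleic acids that can start necroptosis, had 7.73 in CTXpre/CD4post and 7.41 in CTXpre. The third, Dhx58, encodes the helicase LGP2 and had 6.52 in CTXpre/CD4post and 6.40 in CTXpre.

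In the group of ISG15, ubiquitin and ADP-ribose enzymes, 5 of 7 genes had a difference above 0, with a median of 0.09. The median was 0.052 with the bound at the 99th percentile, and the mean was 0.15. Isg15, a ubiquitin-like modifier, had a level of 4.71 in CTXpre/CD4post and 4.16 in CTXpre. The CTXpre level was not above background, so against the bound of that array the gene was at least 1.29-fold higher, and by measured levels 1.47-fold. With 32 added to the linear values, its difference was 0.22. Herc6, the main ligase that attaches ISG15 in mice, had levels of 7.13 in CTXpre/CD4post and 6.86 in CTXpre, and Usp18, which removes ISG15 and damps the type I receptor, had 7.16 in CTXpre/CD4post and 6.94 in CTXpre. The modifier, its ligase and its protease were thus all on the same side of 0.

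Dtx3l and Parp9 encode a ubiquitin ligase complex and are neighbours. Dtx3l had levels of 8.25 in CTXpre/CD4post and 8.33 in CTXpre, and Parp9 6.84 in CTXpre/CD4post and 6.83 in CTXpre. Parp14, an ADP-ribosyltransferase next to Dtx3l, had 6.02 in CTXpre/CD4post and 5.93 in CTXpre. These 3 neighbours stayed within 0.1 of 0, as did Trim30a, an inhibitor of NF-κB signalling, with 7.93 in CTXpre/CD4post and 7.97 in CTXpre.

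The enzymes of nucleotides and nucleic acids had a median difference of 0.26, with 4 of 4 measured genes above 0. Cmpk2, a mitochondrial nucleotide kinase, had levels of 6.63 in CTXpre/CD4post and 6.26 in CTXpre, 1.30-fold higher. Its neighbour Rsad2, which encodes viperin, an enzyme that makes a chain-terminating nucleotide, had 4.78 in CTXpre/CD4post and 4.63 in CTXpre. Isg20, an exonuclease, had 8.02 in CTXpre/CD4post and 7.66 in CTXpre. Samhd1, which breaks down deoxynucleotides, had 10.41 in CTXpre/CD4post and 10.25 in CTXpre.

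Of the remaining induced genes, 3 of 4 had a difference above 0, with a median of 0.22. Xaf1, a promoter of cell death, had levels of 7.68 in CTXpre/CD4post and 7.35 in CTXpre. Ifi27l2a had 6.85 in CTXpre/CD4post and 6.58 in CTXpre, and Ifi35 had 7.83 in CTXpre/CD4post and 7.66 in CTXpre. Rtp4 was on the other side of 0, with 6.17 in CTXpre/CD4post and 6.30 in CTXpre.

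**Figure D4:**
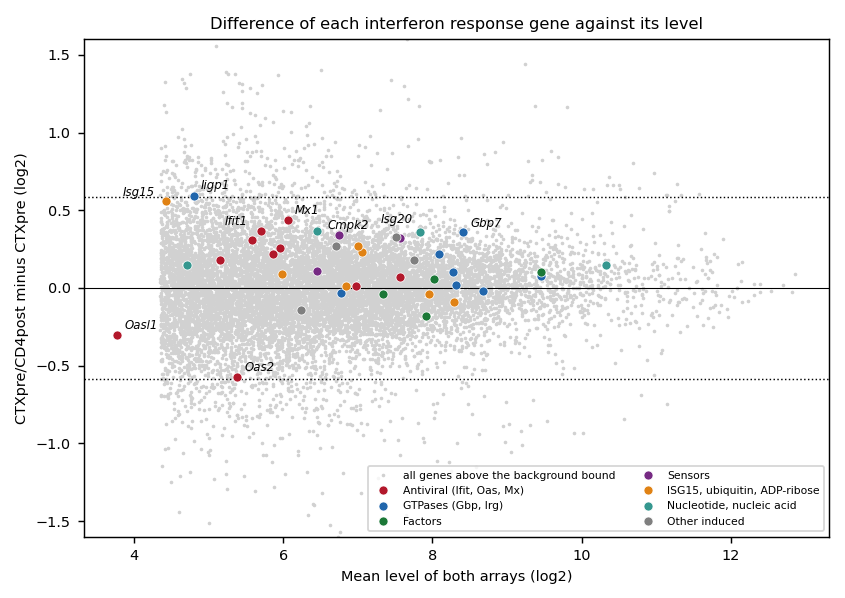
Difference between CTXpre/CD4post and CTXpre (log2) against the mean level of both arrays (log2) for the 40 measured members, coloured by group, over all genes above the background bound in grey, with dotted lines at 1.5-fold. Iigp1 (0.59) and Oas2 (-0.57) sit at the dotted lines among dim genes, and 22 genes past 1.6 in either direction lie outside the axis.

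Members with and without the ISRE core in a promoter window had nearly equal median differences, which were not tested. The median difference was 0.15 over 15 measured members above the bound with the core, of which 11 were above 0, and 0.16 over 12 without it, of which 10 were above 0.

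The rest of the pathway was read from lists of ligands, receptors, factors and inhibitors. Among the ligands, Ifng, which encodes interferon-γ, had levels of 7.48 in CTXpre/CD4post and 5.83 in CTXpre, 3.14-fold higher, a larger difference than that of any of the 40 measured members. Of 19 interferon ligand genes measured, 8 were above the bound. Ifnb1 had 4.90 in CTXpre/CD4post and 5.22 in CTXpre, while Ifna7 had 5.13 in CTXpre/CD4post and 4.54 in CTXpre and Ifna5 5.69 in CTXpre/CD4post and 6.10 in CTXpre. The others above the bound were Ifna1 (-0.25), Ifna16 (-0.47, not above background in CTXpre/CD4post), Ifnl2 (0.21) and Ifnl3 (0.22). The Ifna genes are near-identical copies, so their probe sets may not tell them apart.

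Receptor and kinase genes lay mostly below 0. Of 8 above the bound, 2 had a difference above 0 (25.0%, against 51.8% of all genes above the bound), and the median was -0.09. None was at least 1.5-fold different in either direction, against 5.73% of all genes above the bound. The interferon-γ receptor chains had levels of 9.74 in CTXpre/CD4post and 9.86 in CTXpre for Ifngr1, and of 6.63 in CTXpre/CD4post and 7.17 in CTXpre for Ifngr2, the signalling chain that limits the response of T cells. The type I receptor chains were nearly level, at 7.76 in CTXpre/CD4post and 7.82 in CTXpre for Ifnar1, and 9.57 in CTXpre/CD4post and 9.59 in CTXpre for Ifnar2. Of the kinases, Jak2 differed by -0.31, Jak1 by -0.20 and Tyk2 by 0.08. Il10rb, a receptor chain of the type III interferons, differed by 0.04.

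Of 6 further STAT and IRF genes measured, 2 were above 0 (33.3%, against 51.8% of all genes above the bound). By size, 1 of the 6 was at least 1.5-fold lower, against 2.93% of all genes above the bound. This was Irf5, a factor of B and myeloid cells, with levels of 5.53 in CTXpre/CD4post and 6.29 in CTXpre. Irf8, a factor of dendritic and B cells, had 7.58 in CTXpre/CD4post and 8.14 in CTXpre. Irf3 differed by 0.19, Irf4 by 0.16, Irf2 by -0.02 and Stat3 by -0.23. Inhibitors had a median of 0.12, with 7 of 10 above 0 (70.0%, against 51.8% of all genes above the bound). These were Socs1 (0.15), which blocks JAK kinases, Ptpn6 (0.22), Ptpn11 (0.16), Ptpn2 (0.15), Ptpn1 (0.07), Pias3 (0.10) and Pias4 (0.34). Pias1 (-0.38), Socs3 (-0.25) and Pias2 (-0.05) lay below 0.

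A longer list of 58 further interferon-induced genes had a median of 0.05 over 49 genes above the bound. Of these, 30 were above 0 (61.2%), against 51.8% of all genes above the bound. By measured levels, 0 were at least 1.5-fold higher, against 2.81% of all genes above the bound. Tlr3 and Apol9b, 2 of the 49, were at least 1.5-fold lower, against 2.93%. The highest were Bst2 (0.48), which tethers viruses to the cell, Oas1g (0.38), Apol9a (0.28) and Slfn1 (0.27). The lowest were Tlr3 (-0.88), an endosomal RNA sensor of dendritic cells, Apol9b (-0.59 by measured levels), Plac8 (-0.55) and Ifi30 (-0.47), a thiol reductase of antigen-presenting cells. Apol9b was not above background in CTXpre/CD4post, and against the bound of that array it was at least 1.47-fold lower, short of 1.5-fold. Of 22 further interferon-γ targets above the bound, 16 were above 0 (72.7%, against 51.8% of all genes), with a median of 0.07. At 1.5-fold, 3 of them were higher (13.6%, against 2.81%) and 2 lower (against 2.93%). Casp4, the mouse caspase-11 gene, had levels of 6.60 in CTXpre/CD4post and 5.60 in CTXpre, and Casp1, the inflammasome caspase, 6.59 in CTXpre/CD4post and 5.80 in CTXpre. The chemokine gene Cxcl10 had 5.16 in CTXpre/CD4post and 4.49 in CTXpre, while Cxcl9 had 6.88 in CTXpre/CD4post and 7.54 in CTXpre. Both chemokines attract cells that carry CXCR3, and they lay on opposite sides of 0. Batf2 differed by 0.42, and the lowest were Ciita (-0.78), the master regulator of MHC class II, Cxcl9, Tgtp2 (-0.19) and Psme1 (-0.12).

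**Figure D5:**
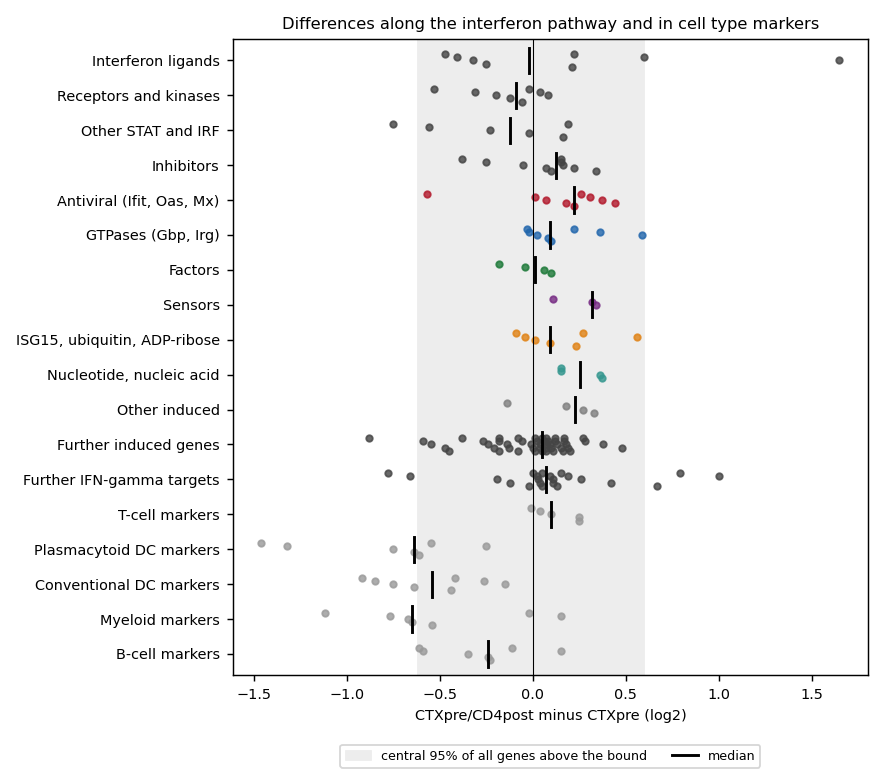
Difference between CTXpre/CD4post and CTXpre (log2) of each gene above the background bound, by step of the interferon pathway, by group of members and by cell type marker list, with a bar at each median and a grey band for the central 95% of all genes (-0.62 to 0.60). The antiviral median was 0.22 and the GTPase median 0.09, against -0.64 for plasmacytoid and -0.54 for conventional dendritic-cell (DC) markers.

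Markers of other cells moved between the same arrays. For comparison, 51.8% of all genes above the bound were above 0 and 2.93% were at least 1.5-fold lower. The sorted cells carried the T-cell markers, with 5 of 5 measured genes above the bound at levels of 9.30 to 11.80 in CTXpre/CD4post and 9.05 to 11.70 in CTXpre. Of these 5 genes, 4 had a difference above 0, with a median of 0.10 and a highest value of 0.25. Plasmacytoid dendritic-cell markers were below 0 in 7 of 7 measured genes, 5 of them at least 1.5-fold lower, and the log2 of their summed level was 10.03 in CTXpre/CD4post and 10.78 in CTXpre. Conventional dendritic-cell markers were below 0 in 8 of 8 (9.15 in CTXpre/CD4post and 9.76 in CTXpre), myeloid markers in 6 of 7 (9.15 in CTXpre/CD4post and 9.90 in CTXpre) and B-cell markers in 6 of 7 (9.82 in CTXpre/CD4post and 10.09 in CTXpre). None of these 29 markers had a mean level under the background bound. Siglech, the defining plasmacytoid gene, had levels of 5.86 in CTXpre/CD4post and 7.18 in CTXpre. Of the natural killer markers, Klrb1c was at least 1.92-fold lower and not above background in CTXpre/CD4post, Eomes differed by -0.01 and Ncr1 was not above background on either array. The 3 measured markers of CD4+ T cells went both ways. Cd4, the target of the antibody, had 5.98 in CTXpre/CD4post and 7.55 in CTXpre, and Zbtb7b had 6.17 in CTXpre/CD4post and 5.81 in CTXpre. Cd40lg had 5.82 in CTXpre/CD4post and 4.02 in CTXpre, where it was not above background, at least 2.78-fold higher. The paper lists Cd40lg among genes raised with anti-CD4. That listing rests on these same arrays, so it repeats the value above and cannot show which cells the RNA came from. From separate RNA sequencing, the paper lists Klrb1c and Cd40lg among genes raised in CD8+ cells enriched for high IL-18Rα. A gene of these marker lists can thus also come from the sorted CD8+ T cells. The labels name CD8 and Thy1.1 for the sort, and some dendritic cells carry CD8. In bulk RNA, fewer cells of a type and less RNA per cell cannot be told apart. Examples of interferon genes that dendritic, myeloid or B cells are known to express went both ways, and they were not a list set beforehand. Among them, Irf7, Irf5, Irf8, Tlr3, Ciita, Ifi30 and Cxcl9 had differences below 0. Bst2, which plasmacytoid dendritic cells carry, Cxcl10, Casp1 and Casp4 had differences above 0. The part of these cells in any value of the interferon genes was not tested.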

How the data were processed

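Gene expression was measured on Affymetrix Clariom S mouse arrays, 1 per group, each with RNA pooled from 5 mice. The authors deposited log2 values made with RMA (background correction, quantile normalization and probe summary) in Affymetrix Power Tools, according to the methods and the submitters' processing notes, with versions and genome build not given in the sources used here. Since RMA equalises the arrays (medians of 5.15 in CTXpre/CD4post and 5.15 in CTXpre), a shift of all RNA cannot be seen. The number of arrays limits the precision.

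Of 22206 probe sets, 19572 carried 1 gene symbol of the platform annotation and 2634 are unnamed here. The probe set with the highest mean of both arrays stood for a gene, though no member had more than 1. Background bounds were 4.36 in CTXpre/CD4post and 4.35 in CTXpre, and genes were kept by their mean level. Calls were by size, at 1.5-fold. The calls and medians were computed in Python 3.11.15 with pandas 2.3.3, numpy 2.4.6 and statsmodels 0.14.6. A test on simulated arrays covered the 1.5-fold calls at true differences of 1.5-fold and more, and not the list medians. Named genes were all members, the ligands, receptors, kinases, factors and inhibitors above background, the 4 highest and 4 lowest of each further list, and Cd4 and Siglech. The other natural killer and CD4+ T-cell markers were named after their values were seen. The members and lists were chosen with earlier results of these data known. Promoter sequences and gene order came from RefSeq tables of GRCm38.p6. Alternatives changed the centring, normalization, level trend, offset, filter, bound, probe set rule, list summary and threshold.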

Additional observations from a re-analysis of the deposited data

How the results depend on the processing

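The median difference of the members was 0.15, and among the alternatives it moved by over 1.5 times only with 32 added to the linear values before the logarithm, to 0.094, where the antiviral median was 0.143 in place of 0.22. With this offset, 11 of 40 member differences were smaller by over 1.5 times, among them Isg15 (0.22), Iigp1 (0.27), Oas2 (-0.32) and Rsad2 (0.07), and the median of the ISG15, ubiquitin and ADP-ribose enzymes was 0.062 in place of 0.09. With means in place of medians, the antiviral value was 0.144 and the GTPase value 0.164, so the order of both groups turned. The count of members at least 1.5-fold higher was 1 in the main setting (Iigp1), against 2.81% of all genes above the bound. It was 0 with the difference centred on its median (2.62% of all genes), with the lowess trend removed (2.69%) and with 32 added (0.963%). It was also 0 with the bound at the 99th percentile (2.41%) and at 2-fold (0.506%). At a log2 difference of 0.32 it was 9, against 10.7% of all genes. The count at least 1.5-fold lower was 0 in the main setting (2.93% of all genes) and 1 at a log2 difference of 0.32 (10.6%). The number of members above 0 stayed between 27 of 35 (99th percentile) and 31 of 39. As a share, the lowest was 30 of 39 (76.9%) with centring, where 49.8% of all genes were above 0. Of 240 member values under alternatives, 2 changed sign, Parp9 with centring and Oasl1 with levels below the bound set to it. The median of the transcription factors, 0.01, was below 0 with centring, with the lowess trend removed and with the mean. No replicate could be left out, and no paired analysis was possible because each group has 1 array and no result comes from a test. Levels near the bound, such as those of Isg15, Iigp1 and Rsad2, have the least signal over background.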
